A study of Mus musculus with 68 samples.

Results

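Autophagy genes were examined in single dopamine (DA) neurons of the ventral tegmental area (VTA), a midbrain region, from 3xTg and wildtype (WT) mice. The set was a fixed list of 40 genes, matched by gene symbol to a table of 36172 genes, and 39 of the 40 symbols were found. Atg4a was listed on 2 rows, both without a count in any cell, which left 38 members with a count, and 26 of these had at least 1 count in at least 34 of the 68 cells, a filter that did not use genotype and that 7304 genes passed. Atg101, the missing symbol, stood in the table under its older name 9430023L20Rik and is given beside the members without being counted as one.

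The 33 3xTg cells came from mice homozygous for transgenes that include mutant human APP (Swedish) and tau (P301L), a model of Alzheimer's disease, and the 35 WT cells from control mice of matching mixed background that were bred as their own line and carry no transgene. Animals were 12 months old, of both sexes and otherwise untreated. Each cell was patch-clamped in a brain slice, its contents were drawn into the pipette and its poly-adenylated RNA was sequenced (Patch-seq), so each sample is 1 cell. The labels name no animal, so each genotype was treated as 1 sample, no test between genotypes was made, and the intervals below cover counting error only. Reads were amplified by PCR without molecular identifiers, so counts are not independent molecules.

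Macroautophagy encloses cytoplasm in a double membrane, the autophagosome, and delivers it to the lysosome. The ULK kinase complex starts the process, a class III phosphatidylinositol 3-kinase (PI3-kinase) complex marks the growing membrane with the lipid PI3P, WIPI proteins bind PI3P and recruit later factors, ATG2 proteins carry lipid to the membrane, and a ubiquitin-like conjugation machinery attaches ATG8 proteins (LC3 and GABARAP) to its lipids. Cargo receptors link ubiquitinated proteins or mitochondria to ATG8, and the SNARE protein syntaxin 17 takes part in fusion with the lysosome. Long-lived neurons depend on this route to clear proteins and mitochondria, and autophagosomes accumulate in neurites in Alzheimer's disease.

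Each ATG8 protein is cut by an ATG4 protease behind a glycine near its end, which is then joined to lipid. The last 45 bases of the coding sequence of the 5 mouse ATG8 genes are shown because this site is what the conjugation members work on, and because similar sequences bear on how reads can be assigned. They were read from mm10 and its GENCODE annotation, lie in coding exons and are written 5′ to 3′ on the gene's own strand, with the codon of that glycine in capitals and the stop codon last.
Map1lc3a: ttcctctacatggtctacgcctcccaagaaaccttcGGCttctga
Map1lc3b: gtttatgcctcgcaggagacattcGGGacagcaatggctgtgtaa
Gabarap: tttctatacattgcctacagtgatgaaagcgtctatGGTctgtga
Gabarapl1: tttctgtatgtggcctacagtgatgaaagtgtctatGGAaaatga
Gabarapl2: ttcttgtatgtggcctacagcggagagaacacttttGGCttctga
The glycine is codon 120 of Map1lc3a and Map1lc3b and codon 116 of the 3 GABARAP genes. A single codon followed it before the stop in each gene except Map1lc3b, which had 5. Over the whole coding sequence, Gabarap and Gabarapl1 shared 74.9% of aligned bases and Map1lc3a and Map1lc3b 74.7%, and the most alike 90-base windows of these pairs shared 82.2% and 87.8%. The authors' alignment required 90% identity, so these coding windows lay below it, while untranslated regions and pseudogenes were not compared.

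All 68 cells had counts from the DA neuron markers Th, Slc6a3, Slc18a2 and Ddc whose summed level ran from 6681 to 33261 CPM (each gene's counts scaled to a common library total) in 3xTg cells and from 4635 to 25803 in WT cells. Total counts per cell ran from 676602 to 1678655 in 3xTg and from 492436 to 1327349 in WT, and a median of 8511 and 7476 genes had a count. Markers of other cell types were not evenly spread. Over each genotype's summed counts, the 5 microglia markers gave 140 CPM in 3xTg and 409 CPM in WT, the 3 astrocyte markers 12.5 and 163 CPM, and the 4 oligodendrocyte markers 86.2 and 278 CPM, with single cells reaching 4890 CPM of microglia markers in 3xTg and 2870 in WT. C1qb made up most of the microglia sums, with 76.2 CPM in 3xTg and 321 in WT. C1qc (21.7 and 6.17 CPM) and Cx3cr1 (14.2 and 11.8) were higher in 3xTg, and C1qa and Csf1r in WT. The median cell had 36.1 CPM of microglia markers in 3xTg and 24.1 in WT. Of the study's own exclusion markers, Aldh1l1 was at 0 in every cell, and Pvalb, Tmem119 or P2ry12 had a count in 5 cells of each genotype. The part of these markers in the results below was not tested except by leaving cells out. The cells carry numbers in their labels that fall into runs by genotype, WT 1 to 22 (17 cells), 3xTg 24 to 55 (21 cells), WT 57 to 74 (15 cells), 3xTg 76 to 92 (12 cells) and WT 94 to 96 (3 cells). What the numbers record is not stated, so comparisons were repeated within each pair of runs, the first of each genotype and the second of each.

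Autophagy transcripts were dominated by the ATG8 family and its best known partner. Levels between genes are compared as CPM of the summed counts per kb of transcript. Gabarapl1, a GABARAP protein, stood first in both genotypes, at 765 CPM per kb in 3xTg and 549 in WT. Sqstm1, the receptor p62 that gathers ubiquitinated cargo, had 304 and 303 CPM per kb. Gabarapl2 had 290 and 236, Gabarap 219 and 249, and Map1lc3b, the usual marker of autophagosomes, 213 and 214 CPM per kb. Bnip3, a mitophagy receptor, had 232 and 189, and Map1lc3a 206 and 139 CPM per kb. At the other end were Ambra1, a regulator of the PI3-kinase complex, at 1.04 and 1.14 CPM per kb, and Atg2a, at 2.15 and 0.63. The 34-cell filter was passed by 2 of the 4 counted ULK complex genes, 1 of the 6 PI3-kinase genes, 3 of the 5 PI3P effector and lipid-transfer genes and 6 of the 9 counted conjugation genes. It was passed by all 5 ATG8 genes, all 5 cargo receptors, all 3 mitophagy receptors and Stx17, and by 40.7% of the 17940 genes with a count.

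**Figure D1:**
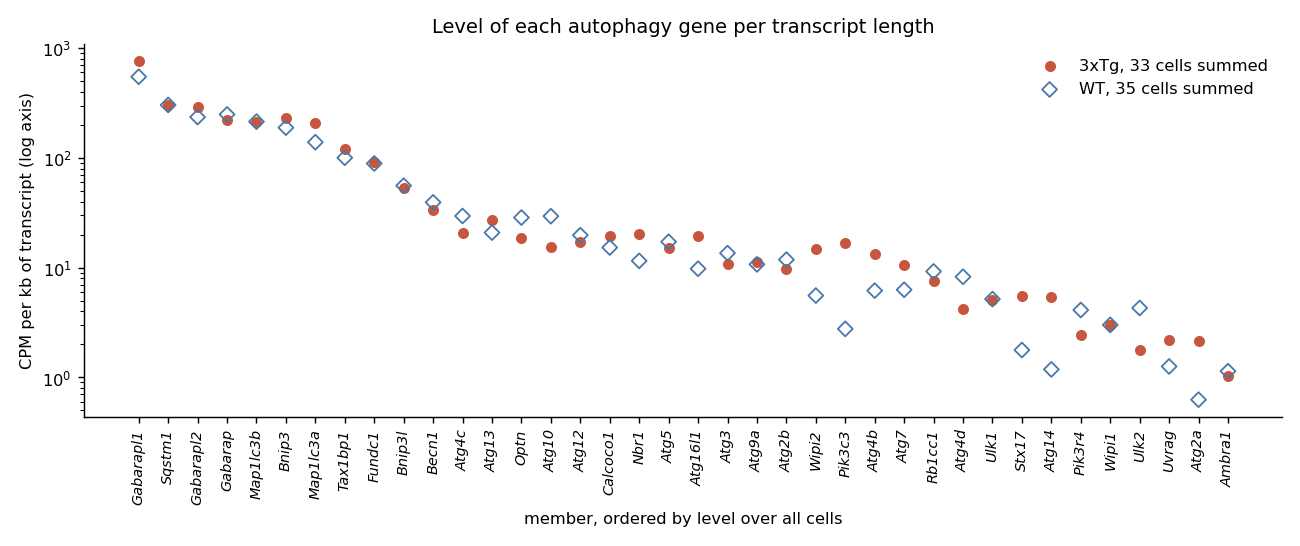
Level of each of the 38 counted members as CPM of the summed counts per kb of transcript (log axis), ordered by the level over all cells, for the 33 3xTg cells (filled circles) and the 35 WT cells (open diamonds). Gabarapl1 is highest in both genotypes, and the widest gaps between genotypes are among sparse genes such as Pik3c3, Atg14 and Atg2a.

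Across the 26 filtered members, summed counts were close between genotypes at the median while the average cell was higher in 3xTg. The median log2 ratio of summed CPM (3xTg over WT) was 0.05, beside −0.05 over all 7304 filtered genes, and 15 of the 26 members lay above 0, where the share of all filtered genes was 46.8%. The difference of cell means, 3xTg minus WT in log2(normalized count + 1), had a median of 0.88 over the members and 0.51 over all filtered genes, a gap of 0.37. It was above 0 in 24 of 26 members, beside 72.9% of all filtered genes. Counts summed over all 38 members came to 6210 CPM for 3xTg cells and 5458 CPM for WT cells, and the log2 ratio was 0.19 with a counting interval from 0.18 to 0.19. The median share of a cell's counts that fell on members was 0.636% in 3xTg (0.375% to 0.778%) and 0.539% in WT (0.276% to 0.839%), so the cells of the 2 genotypes overlapped over most of their range. Detection and the level in cells with a count were both higher in 3xTg for most members. The cause of the gap between summed counts and cell means was not tested. A larger share of 3xTg cells than WT cells had a count in 21 of the 26 members (69.5% of all filtered genes), and among cells with a count the mean level was higher in 3xTg in 23 of 26 (57.3% of all filtered genes).

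More members were detected per 3xTg cell, as were more genes in all. A 3xTg cell had a count of a median of 29 members, from 11 to 36, and a WT cell of 23, from 12 to 33. With counts drawn down at random to 700471 in every cell, for which 2 3xTg and 5 WT cells were too shallow, the medians were 29 and 24. The number of members followed the number of genes detected closely, with a Pearson r of 0.94 and a Spearman rho of 0.91 over the 33 3xTg cells and an r of 0.94 and a rho of 0.95 over the 35 WT cells, as a description of cells that share library depth and RNA yield. As a share of all genes detected in a cell, members had a median of 0.336% in 3xTg (SD 0.0309 across cells) and 0.312% in WT (SD 0.0389), so the genotypes lay within the spread of cells on this scale. By run, the medians were 18 members in the first WT run, 26 in the first 3xTg run, 25 in the second WT run and 29.5 in the second 3xTg run. The WT runs thus lay further apart than the 6 members between the genotypes.

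**Figure D2:**
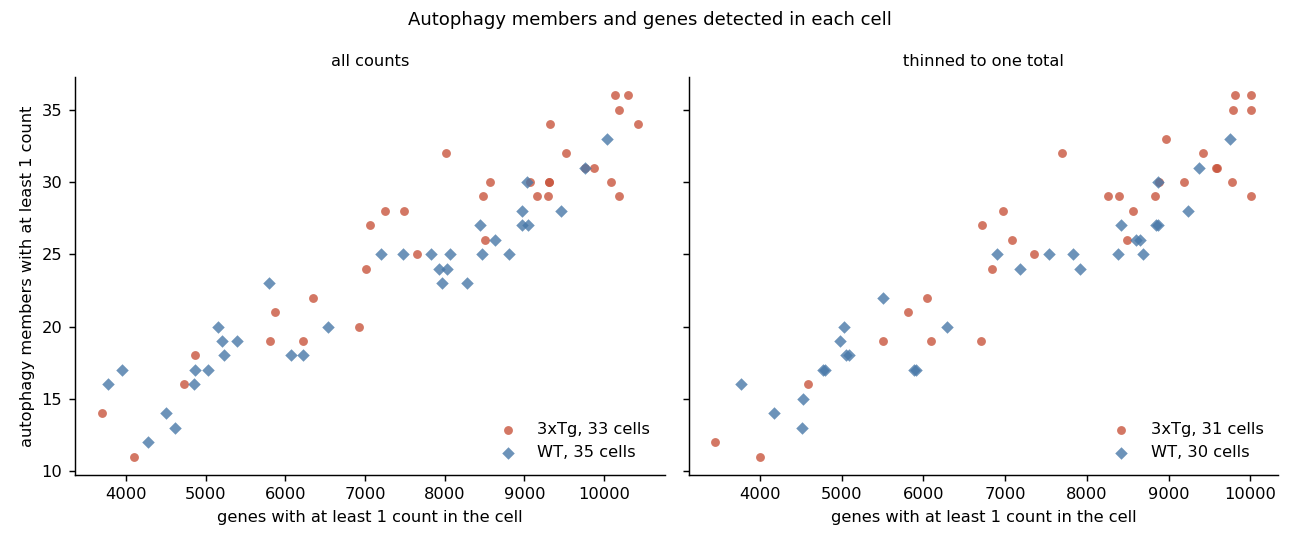
Number of autophagy members with at least 1 count in each cell against the number of all genes with at least 1 count, for all counts (left) and after thinning each cell to 700471 counts (right), with 3xTg cells as circles and WT cells as diamonds. Cells of both genotypes lie along a common band, and 3xTg cells fill more of its upper end (medians of 29 and 23 members before thinning).

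Single members were compared by a rule of size in place of a test, since cells are not replicates. A member counted as higher in 3xTg where its summed CPM was at least 1.5-fold higher and its difference of cell means exceeded that of the median gene, and as lower where both held in the other direction. Of the 26 filtered members 5 were higher, Wipi2, Atg4b, Atg7, Nbr1 and Stx17, beside 11.8% of all filtered genes. Atg10 and Optn, 2 members, were lower, beside 16.3% of all filtered genes. Over all 38 counted members, sparse genes included, 9 were higher and 4 lower, beside 11.4% and 29.4% of all 17940 genes with a count, with the cell means set against the median of the 7304 filtered genes. Set against the median of all 17940 genes, a difference of 0.13, 10 were higher and 2 lower, beside 17.8% and 27.1%. The 4 sparse members added on the high side were Pik3c3, Atg14, Atg2a and Atg16l1, and the 2 on the low side were Ulk2 and Pik3r4. In all 13 the summed counts of both run pairs differed in the direction of all cells, which also held for 79.1% of the higher and 50.0% of the lower genes by the rule among all genes with a count, and for 83.8% and 78.1% of those among the filtered genes. With any single cell left out, the log2 ratio kept its sign in these 13. Those of Atg7 (0.52), Pik3r4 (−0.49) and Optn (−0.38) each fell under 1.5-fold without 1 cell. The sign turned in 14 of the other 25 counted members. Over all genes with a count it turned, or was lost with the last counts, in 24.7% of those past the rule and 53.2% of the others. These shares take in genes counted in very few cells, sparser than the members, so they are not a like comparison. No share over the filtered genes was computed. Whatever their size, 16 of the 26 filtered members had the same sign in both run pairs, beside 50.5% of all filtered genes. Agreement in direction is weaker than passing the rule within each run pair, which only Atg4b of the 26 filtered members did in the direction of all cells, as higher, while none did as lower. Of all filtered genes 4.13% passed it there as higher and 5.63% as lower. Among the sparse members, Pik3c3, Atg14 and Atg16l1 also passed it within each run pair as higher. No share over all genes with a count was computed for that comparison. For 34 of the 38 counted members the lowest cell was at 0 in both genotypes. The cells of the genotypes overlapped in range in all 38, as in each of the 17940 genes with a count.

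**Figure D3:**
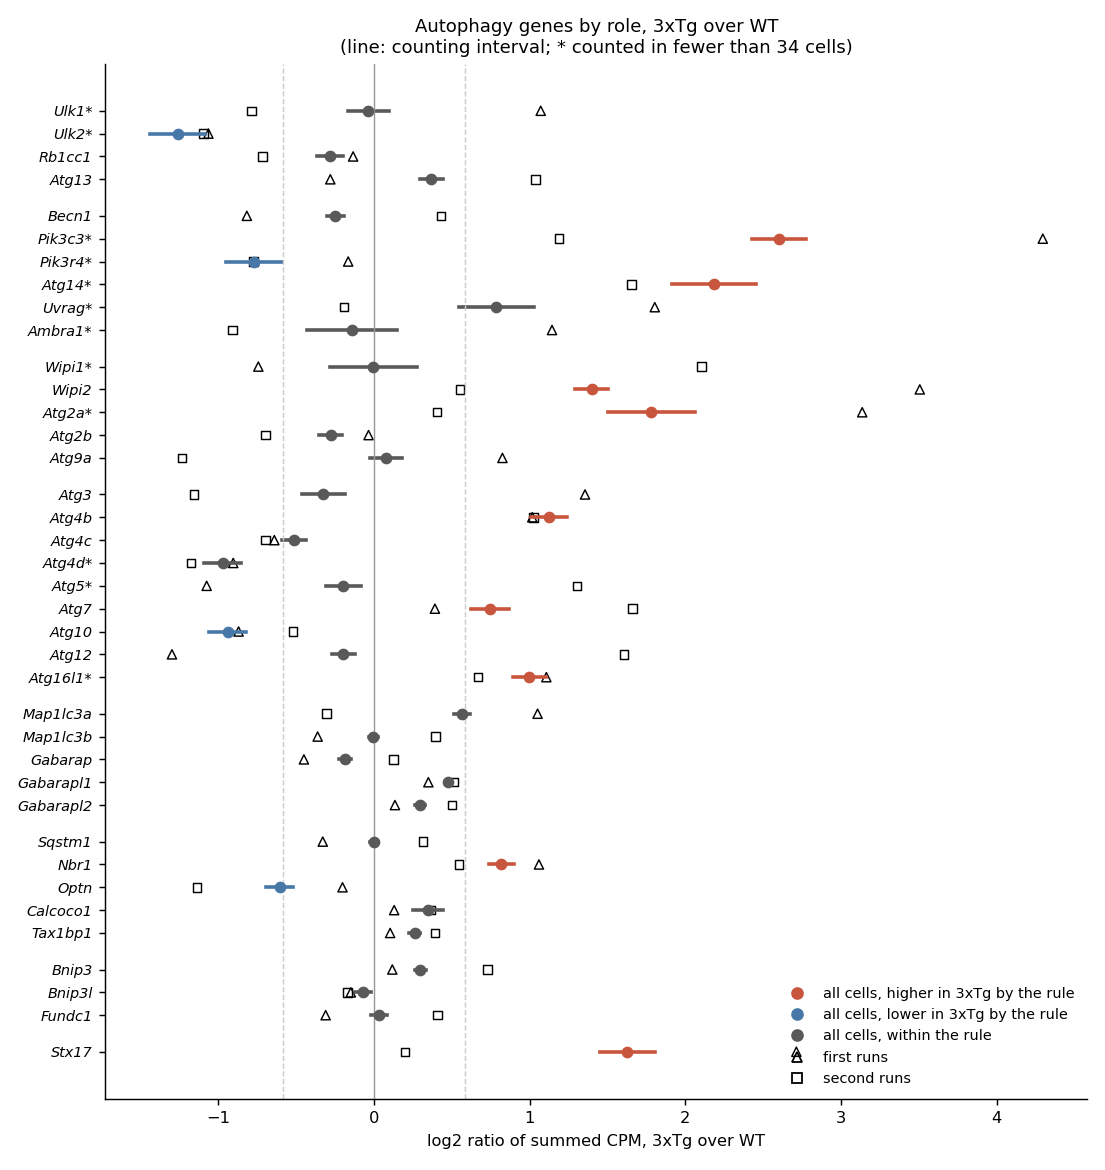
Log2 ratio of summed CPM, 3xTg over WT, for the 38 counted members grouped by role from the ULK complex (top) to Stx17 (bottom), with the counting interval as a line, the first runs as triangles and the second runs as squares. Filled circles are coloured where a member passes the rule of size, dashed lines mark 1.5-fold, an asterisk marks members counted in fewer than 34 cells, and the first-run ratio of Atg14 is not drawn because it rests on 2 WT counts. The run pairs of Atg4b lie on each other, while those of Atg12, Atg5 and Atg3 lie on opposite sides of 0.

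Of the 4 counted ULK complex genes only Ulk2 passed the rule. All 4 had higher cell means in 3xTg (median difference 1.02) and a count in a larger share of 3xTg cells, as did most genes. Over all genes with a count the shares were 65.8% and 67.6%, with a median difference of 0.13, and over the filtered genes 72.9% and 69.5%, with 0.51. Ulk1, the initiating kinase, had sums of 965 and 918 counts (3xTg, WT) and a log2 ratio of −0.04 (−0.17 to 0.09), but cell WT 57 held 49.9% of the WT counts, and without it the ratio was 0.92. Ulk2, its paralogue, was lower in 3xTg by the rule. It ran from 0 to 111 normalized counts in 3xTg (median 0, a count in 16 of 33 cells) and in WT from 0 to 275 (median 0, 13 of 35 cells). Its summed CPM was 10.3 and 24.7 (3xTg, WT), a log2 ratio of −1.26 (−1.44 to −1.08), with −1.06 and −1.09 in the run pairs. Cell WT 72 held 35.9% of the WT counts, and without it the ratio was −0.67. More 3xTg than WT cells therefore carried Ulk2, at lower counts. The scaffold genes Rb1cc1 (FIP200) and Atg13 had log2 ratios of −0.28 and 0.37, and Atg101, under its older symbol, of 0.21.

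Among the PI3-kinase genes, the catalytic subunit Pik3c3 (VPS34) and Atg14, which directs the complex to autophagy, were higher in 3xTg by the rule, and both rested on few cells. Pik3c3 ran from 0 to 1446 normalized counts in 3xTg (median 0, a count in 14 of 33 cells) and in WT from 0 to 135 (median 0, 11 of 35 cells). Its sums were 2010 and 307 counts, a log2 ratio of 2.60 (2.43 to 2.78), of which cell 3xTg 24 supplied 46.9% of the 3xTg counts, and without it the ratio was 1.73, while without WT 60 it was 3.29. The run pairs gave 4.30 and 1.19. Atg14 had a count in 10 3xTg cells (0 to 142 normalized counts, median 0) and in 5 WT cells (0 to 85.9, median 0), with sums of 681 and 139 and a log2 ratio of 2.18 (1.92 to 2.46). Cell WT 71 held 90.7% of the WT counts, and the ratio was 5.56 without it and 1.44 without the highest 3xTg cell, 3xTg 92. The first WT run held 2 counts of Atg14, which gave a run ratio of 6.52 with a counting interval from 4.65 to 9.57. The regulatory kinase Pik3r4 (VPS15) was lower in 3xTg by the rule, from 0 to 82.8 normalized counts against 0 to 130 in WT, with medians of 0 and a log2 ratio of −0.77 (−0.95 to −0.59), −0.17 and −0.77 in the run pairs. It had a count in 13 of 33 3xTg cells and 9 of 35 WT cells, and its cell means were 0.18 higher in 3xTg, below the 0.51 of the median gene. Without cell WT 95 the Pik3r4 ratio was −0.49, under 1.5-fold. Becn1, the scaffold beclin 1 and the only filtered gene of the complex, had 99.5 and 99.2 normalized counts at the median cell and a log2 ratio of −0.25 (−0.30 to −0.19), with −0.82 in the first runs and 0.43 in the second. Becn1 overlaps Cntd1 in the annotation, as Pik3r4 does Gm19687. Uvrag and Ambra1 had ratios of 0.79 and −0.14 and were outside the rule. The Uvrag ratio was 0.09 without cell 3xTg 49, and that of Ambra1 ran from −0.86 without 3xTg 35 to 0.58 without WT 67.

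Wipi2, a PI3P-binding protein that brings the conjugation machinery to the forming membrane, had the widest difference of cell means of the 26 filtered members. It lies at chr5:142629584-142669370 on the plus strand. Normalized counts ran from 0 to 440 in 3xTg cells (median 63.5) and from 0 to 263 in WT cells (median 0.91), and 28 of 33 3xTg cells and 20 of 35 WT cells had a count. The median 3xTg cell thus carried Wipi2, while the median WT cell was at or near 0. Summed counts were 2792 and 980, a log2 ratio of 1.40 (1.30 to 1.51), between 1.20 and 1.72 with any single cell left out, and the difference of cell means was 2.73, or 2.22 above the median gene. The WT runs differed from each other, with a count in 6 of 17 cells of the first and 12 of 15 of the second, and the run pairs gave log2 ratios of 3.51 (first) and 0.55 (second), the latter just under 1.5-fold. Its paralogue Wipi1 was counted in 14 cells, with a log2 ratio of 0.00 (−0.28 to 0.27).

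The lipid-transfer gene Atg2a was higher in 3xTg by the rule, from 0 to 131 normalized counts in 3xTg (10 cells with a count) and 0 to 36.8 in WT (6 cells), with medians of 0 and a log2 ratio of 1.78 (1.504 to 2.06). It was 1.41 without cell 3xTg 35 and 2.48 without WT 68, which held 39.7% of the WT counts. The run pairs gave 3.14 and 0.41, the latter under 1.5-fold and with cell means at −0.22 relative to the median gene, so Atg2a was outside the rule in the second runs. Atg2b, its paralogue, was more abundant in both genotypes and had a ratio of −0.28 (−0.35 to −0.20). The scramblase Atg9a had a ratio of 0.08 (−0.03 to 0.18), made of 0.83 in the first runs and −1.23 in the second.

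The conjugation genes had no common direction in summed counts, with a pooled log2 ratio of −0.07 over the 9 counted genes. Cell means were higher in 3xTg in 8 of the 9, beside 65.8% of all genes with a count, and 8 were detected in a larger share of 3xTg cells, beside 67.6%. Atg4b, the main protease of the ATG8 precursors, was higher in 3xTg, at chr1:93755033-93789529 on the plus strand. It ran from 0 to 347 normalized counts in 3xTg (median 43.01, a count in 21 of 33 cells) and in WT from 0 to 217 (median 0, 16 of 35 cells). Its sums were 2060 and 877 counts, a log2 ratio of 1.12 (1.01 to 1.24), with 1.02 in the first runs and 1.02 in the second. The protease paralogues went the other way in summed counts. Atg4c had a ratio of −0.52 (−0.59 to −0.44), with −0.64 and −0.70 in the run pairs, and 0.05 without cell WT 11. Atg4d had −0.97 (−1.09 to −0.85), with −0.90 and −1.18, yet it had a count in 18 3xTg cells and 11 WT cells and its cell means lay 0.28 above the median gene, so it was outside the rule. Atg4d overlaps Kri1 on the other strand.

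Atg7, the E1-like enzyme that activates both ATG8 and ATG12, was higher in 3xTg, and Atg10, the E2-like enzyme that attaches ATG12 to ATG5, was lower. Atg7 (chr6:114643097-114860614, plus strand) ran from 0 to 299 normalized counts in 3xTg (median 9.68, 25 of 33 cells with a count) and in WT from 0 to 526 (median 0, 17 of 35 cells). Its log2 ratio was 0.74 (0.62 to 0.87), with 0.39 and 1.66 in the run pairs. The highest cell of all was a WT cell, WT 5, which held 52.04% of the WT counts, and without it the ratio was 1.77. Without cell 3xTg 31 the Atg7 ratio was 0.52 and after thinning 0.57, both under 1.5-fold, so Atg7 was then outside the rule. Other annotated genes overlap the Atg7, Atg16l1 and Bnip3 loci. Atg10 (chr13:90935349-91223987, minus strand) ran from 0 to 139 normalized counts in 3xTg (median 1.53, 22 of 33 cells) and in WT from 0 to 453 (median 1.73, 25 of 35 cells). The median cells were alike, and the summed counts of 892 and 1586 differed through the upper cells, with a log2 ratio of −0.94 (−1.06 to −0.82) and −0.87 and −0.52 in the run pairs. Atg16l1, which places the ATG12-ATG5 conjugate on the membrane, was higher in 3xTg, from 0 to 267 normalized counts (median 45.6, 20 of 33 cells) against 0 to 225 in WT (median 0, 11 of 35 cells), with a ratio of 0.998 (0.89 to 1.11) and 1.11 and 0.67 in the run pairs. Its conjugate partners gave no single direction. Atg12 had a ratio of −0.20, with −1.30 and 1.61 in the run pairs, and Atg5 −0.20, with −1.07 and 1.30. Atg3, the E2-like enzyme of the ATG8 branch, had −0.32, with 1.36 and −1.16, and 0.48 without cell WT 96, which held 43.7% of the WT counts.

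**Figure D4:**
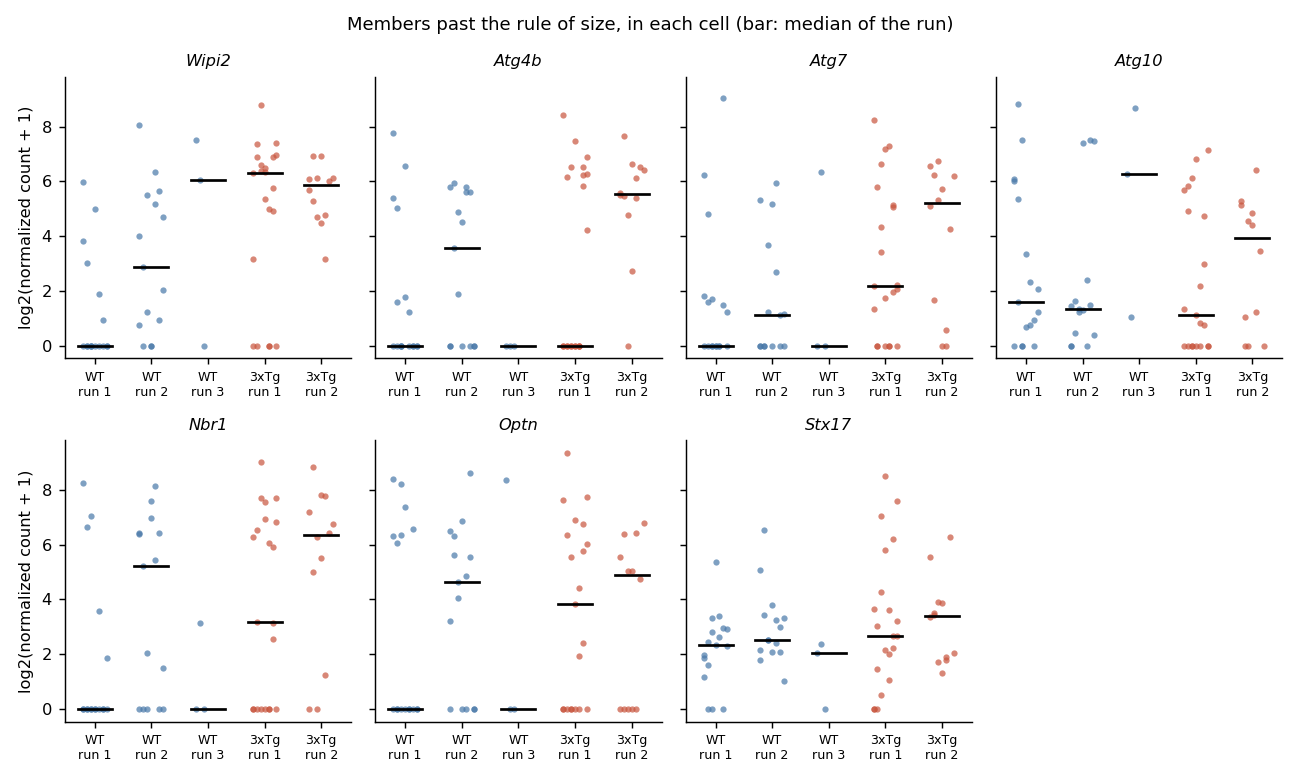
Log2(normalized count + 1) of the 7 filtered members past the rule of size in each cell, by run of label numbers, with WT cells in blue, 3xTg cells in red and a bar at the median of each run. In Wipi2 the first WT run has its median at 0 while both 3xTg runs have theirs near 6.

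The 5 ATG8 genes were counted in nearly every cell and none passed the rule of size, although Map1lc3a and Gabarapl1 did under some of the alternatives given at the end. All 5 had a count in 31 of 33 3xTg cells and 27 of 35 WT cells, and no cell had fewer than 4. Gabarapl1 (chr6:129533192-129542331, plus strand) ran from 101 to 3258 normalized counts in 3xTg (median 1393) and in WT from 43.2 to 3499 (median 864). Its summed CPM was 1392 and 999, a log2 ratio of 0.48 (0.46 to 0.50), with 0.35 and 0.51 in the run pairs and 0.45 to 0.53 with any single cell left out. The locus overlaps 1700101I11Rik on the other strand. Map1lc3a ran from 25.5 to 678 normalized counts in 3xTg (median 202) and in WT from 0 to 703 (median 88.1), and 4 WT cells had none. Its log2 ratio was 0.57 (0.52 to 0.62), close to the 1.5-fold limit, with 1.05 in the first runs and −0.31 in the second. Its cell means were 7.57 (SD 1.16) in 3xTg and 5.69 (SD 2.76) in WT, the SDs being those of cells.

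The other 3 ATG8 genes were closer. Map1lc3b ran from 88.9 to 1250 normalized counts in 3xTg (median 511) and in WT from 0 to 4475 (median 371), with summed CPM of 540 and 542. Gabarapl2 had 0 to 1009 normalized counts per 3xTg cell, with a median of 452, and 0 to 1768 per WT cell, with a median of 333. The summed counts had a log2 ratio of 0.30 (0.27 to 0.33) and 0.14 and 0.50 in the run pairs. Gabarap had 0 to 833 per 3xTg cell, with a median of 296, and 0 to 1406 per WT cell, with a median of 214, and its sums had a log2 ratio of −0.18 (−0.22 to −0.15), −0.45 in the first runs and 0.13 in the second.

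Within the family's own counts Gabarapl1 made up 47.3% (46.99% to 47.6%, exact binomial) in 3xTg and 41.2% (40.8% to 41.5%) in WT. Map1lc3b made up 18.4% and 22.3%, Gabarap 10.1% and 13.9%, Gabarapl2 16.5% and 16.3%, and Map1lc3a 7.79% and 6.37%. The run spread was as wide, since Gabarapl1 held 38.4% in the first WT run and 46.1% in the second, against 45.4% and 50.1% in the 3xTg runs. Per transcript length, Gabarapl1 was the highest ATG8 gene in 28 of 33 3xTg cells and 23 of 35 WT cells, and Gabarap was highest in none of the 3xTg cells and 6 of the WT cells.

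**Figure D5:**
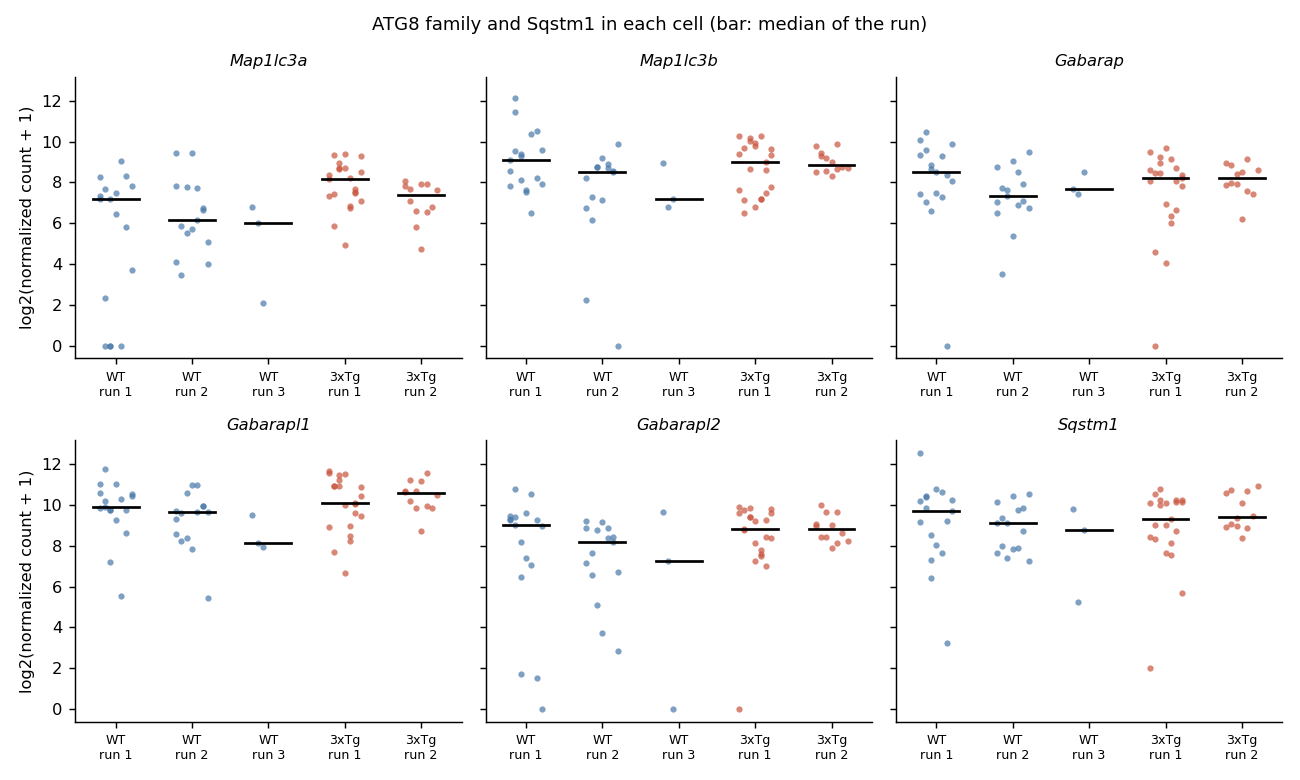
Log2(normalized count + 1) of the 5 ATG8 genes and Sqstm1 in each cell, by run of label numbers, with WT cells in blue, 3xTg cells in red and a bar at the median of each run. The medians of Gabarapl1 lie above 8 in every run, and the WT cells without Map1lc3a are 4, all in the first run.

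Levels of the ATG8 genes and Sqstm1 were only loosely related from cell to cell. Over the thinned cells, the 15 pairs of these 6 genes had Pearson r from −0.22 to 0.79 in 31 3xTg cells and from −0.30 to 0.58 in 30 WT cells. The highest, Map1lc3b with Gabarap in 3xTg, had an r of 0.79 and a Spearman rho of 0.46, and in WT the r was −0.01 and the rho 0.35. Gabarapl2 with Sqstm1 in 3xTg had an r of 0.75 but a rho of −0.04. These are descriptions of cells that share depth and detection.

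The log2 ratio was above 0 in 4 of the 5 cargo receptors, beside 46.8% of all filtered genes. Cell means were higher in 3xTg in all 5, beside 72.9%. Sqstm1 (chr11:50200152-50210790, minus strand) ran from 3.07 to 1939 normalized counts in 3xTg (median 660) and in WT from 8.48 to 5957 (median 584), and its summed CPM was 812 and 811, a log2 ratio of 0.00 (−0.02 to 0.02), made of −0.33 in the first runs and 0.31 in the second. Nbr1, a p62-like receptor of ubiquitinated cargo, was higher in 3xTg by the rule, at chr11:101552107-101581951 on the plus strand. It ran from 0 to 516 normalized counts in 3xTg (median 59.01, 23 of 33 cells) and in WT from 0 to 306 (median 0, 16 of 35 cells), with a log2 ratio of 0.82 (0.74 to 0.90) and 1.06 and 0.55 in the run pairs. Without the 3 3xTg and 11 WT cells that held at least 500 CPM of glial and endothelial markers, the Nbr1 ratio was 0.34, while that of Atg7 was 2.29 and that of Wipi2 1.60. Optn, optineurin, a receptor for ubiquitinated mitochondria, was lower in 3xTg by the rule, at chr2:5020642-5063938 on the minus strand. It ran from 0 to 648 normalized counts in 3xTg (median 20.5, 20 of 33 cells) and in WT from 0 to 396 (median 8.31, 18 of 35 cells). The median 3xTg cell was thus the higher of the pair although the summed counts, 1805 and 2545, gave a log2 ratio of −0.61 (−0.69 to −0.52), with −0.20 and −1.14 in the run pairs. That ratio lay close to the 1.5-fold limit and was −0.38 without cell WT 72. Tax1bp1 and Calcoco1 had ratios of 0.26 and 0.35.

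None of the 3 membrane-anchored mitophagy receptors passed the rule over all cells. Bnip3 ran from 0 to 1433 normalized counts in 3xTg (median 391) and in WT from 0 to 1155 (median 291), with a log2 ratio of 0.30 (0.26 to 0.33) and 0.12 and 0.73 in the run pairs, and it passed the rule as higher in the second runs alone. Bnip3l (NIX) had −0.07 and Fundc1 0.03, and a single cell held 27.0% of the Fundc1 counts in 3xTg (3xTg 24) and 27.5% in WT (WT 9). Without the cells of at least 500 CPM of glial and endothelial markers, Fundc1 was higher in 3xTg by the rule, with a ratio of 0.99.

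Stx17, the autophagosomal SNARE, was the filtered member with the highest log2 ratio of summed counts, and it was counted in 29 of 33 3xTg and 31 of 35 WT cells, mostly at low level. It lies at chr4:48124919-48186506 on the plus strand. Normalized counts ran from 0 to 361 in 3xTg (median 7.26) and in WT from 0 to 91.8 (median 4.28). The medians were close, and the summed counts of 1164 and 349 differed through a few high 3xTg cells, of which 3xTg 39 held 26.6%. The log2 ratio was 1.63 (1.45 to 1.80), with 2.71 in the first runs and 0.20 in the second, and the cell means lay 0.25 above the median gene.

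Other genes of the pathway, a list of 39 outside the members that covers upstream kinases, transcription factors, further receptors and fusion factors, were at 0 in 1 case (Wdr45b, listed as Wdr45l) and otherwise counted, Tfeb with a single count in 1 cell. Of the 25 that passed the 34-cell filter, 1 was higher in 3xTg by the rule and 3 were lower, beside 11.8% and 16.3% of all filtered genes, and their median log2 ratio was −0.0071. Trp53inp2, which carries LC3 out of the nucleus, was the higher one, with 43.7 CPM in 3xTg and 26.3 in WT (log2 ratio 0.73). The lower ones were Pink1, a kinase that marks damaged mitochondria, with a log2 ratio of −0.62, Tmem41b, a scramblase of the endoplasmic reticulum (−0.90), and Epg5, a tether for fusion with lysosomes (−1.27). Pink1 had −0.66 and −0.27 in the run pairs, whereas Epg5 had 0.68 and −2.73. Among the sparser genes, Plekhm1 was higher, and Prkaa2, Rptor, Snap29 and Vamp8 were lower, with Vamp8 counted in 3 cells of each genotype and Snap29 of opposite sign in the run pairs. That made 2 higher and 7 lower of the 38 counted, beside 11.4% and 29.4% of all genes with a count.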

How the data were processed

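The members and gene lists were chosen with earlier results of these data known. The deposited table holds, for each of the 68 cells, estimated counts per gene and log2 normalized values. Per the study's methods, the authors used Strand NGS to trim reads and align them to RefSeq transcripts of mm10 with at least 90% identity, removed duplicate reads and normalized with the DESeq2 algorithm. Per the labels, mm10 and DESeq2 are named as well. The estimated counts deposited by the authors need not be whole, and 55.3% of those above 0 were not (tolerance 0.001), so they were rounded for sums. The deposited log2 values were used only as an alternative, since they are shifted per gene by an amount not given in the sources used here. A t-test was the study's own comparison of cells and was not repeated here.

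Cells were grouped by the genotype in their labels, and each genotype was treated as 1 sample because no label names an animal. Counts were summed per genotype, divided by summed totals and compared as log2 ratios with exact 95% intervals that cover counting error only. Cell values were divided by size factors computed as in DESeq2 from 787 genes and averaged as log2(normalized count + 1). Shares of cells count a gene as detected from 1 count. Genes were kept where at least 34 cells had a count, and the rule of size was 1.5-fold. Members described with their lowest, median and highest cell were those past the rule, the ATG8 family and the 5 with the highest summed counts. An allele of the mouse line and a gene of the wider pathway list are not reported here, and that gene is left out of the list's counts. Transcript lengths and coding sequences came from the GENCODE annotation of mm10. Libraries were compared in pairs, and the highest correlation between 2 cells was 0.748, so none was taken as a repeat. Python 3.11.15, numpy 2.4.6, scipy 1.17.1, pandas 2.3.3 and edgeR 4.0.16 (TMM factors, R 4.3.3) were used. Alternatives were other scalings, thinning, pseudocounts, filters, cells left out and label-number runs.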

Additional observations from a re-analysis of the deposited data

How the results depend on the processing

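No paired analysis was possible because the genotypes share no label numbers and no test was made. The median log2 ratio of the 26 filtered members was 0.05, and 0.15 with TMM factors, 0.18 after thinning, 0.03 in the first run pair and 0.38 in the second, and it ran from 0.0096 to 0.24 with single cells left out (highest without WT 6). The median gene moved from −0.05 to 0.05 with TMM factors, to −0.16 between the second runs and to 0.13 between the first, where the members thus lay below it. The median difference of cell means, 0.88, was 0.73 after thinning, 1.14 and 0.49 with pseudocounts of 0.1 and 10, 0.75 with the filter at 54 cells, 0.73 in the first run pair and 1.25 in the second, each above the median of all genes in that setting. It was 0.75 to 0.99 with single cells left out. The count of members higher in 3xTg, 5, was 3 after thinning (Wipi2, Atg4b, Stx17, beside 12.95% of all genes in that setting), 2 of 20 with detection at 10 counts (10.3%), 1 of 13 with the filter at 54 cells (Stx17, 6.43%), 7 in the first run pair (23.6%) and 5 in the second (15.4%), and 10 of 38 without a filter (17.8%), where the median gene is lower, Uvrag was added and 2 (Ulk2, Atg10) were lower, so Pik3r4 and Optn were not called, and it ran from 4 to 7 with single cells left out (7 without WT 57). The count lower, 2, was 1 with TMM factors (beside 12.2% of all genes), with detection at 10 counts (11.8%), without the 4 cells of each genotype holding at least 10 counts of Pvalb, Tmem119, P2ry12 or Aldh1l1 (17.8%) and, an alternative chosen after seeing the data, without cells of at least 500 CPM of glial and endothelial markers (21.7%), 0 with the filter at 54 cells (14.3%), 3 (15.4%) and 5 (30.6%) in the first and second run pair, and ran from 1 (without 3xTg 24) to 3. With TMM factors 6 members were higher, beside 15.3% of all genes, with Map1lc3a (0.67) added. Weighting cells alike added Map1lc3a and Gabarapl1 to the higher members (7, beside 18.1% of all genes) and Atg4c (−0.81) to the lower, from which Optn (−0.13) dropped out (2, beside 13.8%). Relative to the median gene, the cell means of a called member changed sign in the first run pair for Ulk2 (0.065) and Optn (0.20), in the second for Atg2a (−0.22), Atg10 (0.15) and Stx17 (−0.38), and for Optn without the cells of other markers (0.20). The cause was not tested. The difference of 6 members detected per cell was 5 after thinning and 5.5 to 6 with single cells left out.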
